A study of Mus musculus with 12 samples.

Results

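The route from the insulin receptor to the insulin-responsive glucose transporter was followed through 9 genes in RNA bound by CPEB4, an RNA-binding protein that recognises elements in 3′ UTRs and controls poly(A) tails and translation. The genes were Insr, Irs1, Irs2, Pik3r1, Pik3ca, Akt1, Akt2, Tbc1d4 and Slc2a4, chosen as the features of a deposited 3′ UTR count table that carry these symbols. Each had 1 feature, so they made up 9 of 20586 features, and 8 of the 9 passed the filter on low counts. Irs2 did not.

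The study compared 3 groups of 4 libraries of the mouse line 3T3-L1, preadipocytes that turn into adipocytes in culture. The groups were RNA brought down by an anti-CPEB4 antibody (CPEB4 IP), RNA brought down by control immunoglobulin (IgG IP) and RNA of the unprecipitated extract (Input). Per the labels, all 3 groups came from adipocytes at differentiation day 8 that then received fatty acids for 24 h (palmitic acid at 300 µM with oleic and linoleic acid at 100 µM each). All had been induced with IBMX, dexamethasone, rosiglitazone and insulin, and insulin at 10 µg/mL stayed in the later medium, so no group of the study lacked insulin exposure. Poly(A) selection was applied to Input alone, per the labels, so precipitation and the absence of that selection cannot be told apart in any comparison with Input. Separate cultures are not mentioned for the replicates, and p-values therefore cover the spread between these libraries only, which may be technical.

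When insulin binds its receptor, Insr, the receptor phosphorylates the docking proteins Irs1 and Irs2. These recruit the lipid kinase PI3K, built from a regulatory subunit (Pik3r1) and a catalytic subunit (Pik3ca), whose product brings the kinases Akt1 and Akt2 to the membrane. In adipocytes Akt2 is the isoform best known for glucose uptake. It phosphorylates Tbc1d4, a Rab GTPase-activating protein that otherwise holds back vesicles carrying the glucose transporter GLUT4, the product of Slc2a4.

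The features lie, in mm10 coordinates, at chr8:3150922-3155668 for Insr, chr1:82233101-82237604 for Irs1 and chr8:10986980-10987009 for Irs2. Pik3r1 was counted at chr13:101680761-101684879 and Pik3ca at chr3:32462832-32468486. Akt1 was counted at chr12:112653821-112654697, Akt2 at chr7:27638142-27640826, Tbc1d4 at chr14:101442360-101444537 and Slc2a4 at chr11:69942543-69943368. Pik3ca and Akt2 are on the plus strand and the other 7 genes on the minus strand. The widths ran from 826 bases for Slc2a4 and 877 for Akt1 to 4747 for Insr and 5655 for Pik3ca. Irs2 was the exception, with a feature of 30 bases that ends 2299 bases short of the 3′ end of the gene in the RefSeq annotation of GRCm38.p6, the assembly that mm10 stands for. The feature of Pik3ca reaches past the 3′ end of that gene in the same annotation, and the feature of Slc2a4 ends 257 bases short of its gene end. Irs1 shares part of its feature with Gm9747 on the opposite strand (chr1:82234397-82235933). Whether counting used the strand is not given in the sources used here, so reads of Irs1 and Gm9747 cannot be told apart.

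CPEB4 IP libraries held 1114911 to 1159188 counts, IgG IP libraries 88013 to 622976 and Input libraries 858028 to 1578084. Levels are given as CPM, counts scaled to the library size after TMM. A count of 3 in a single library stood for 2.30 to 2.77 CPM in CPEB4 IP, 8.88 to 23.1 CPM in IgG IP and 1.91 to 2.96 CPM in Input. Such floors cover counting error only, since PCR copies were counted without molecular identifiers and need not be independent molecules. The 3′ UTR of Lars2, which encodes mitochondrial leucyl-tRNA synthetase, took 4.60% to 23.7% of the counts of a CPEB4 IP library, 28.6% to 63.9% in IgG IP and 7.79% to 14.1% in Input. Libraries of replicates 1 and 2 carry one run of library numbers and those of replicates 3 and 4 another. Chi-square per degree of freedom between libraries of one group was lower within these sets than across them in every group. In CPEB4 IP it was 3.09 to 4.57 within and 20.1 to 33.8 across the sets. It was 1.63 to 1.64 and 13.9 to 16.3 in IgG IP, and 10.9 to 25.9 and 32.6 to 40.7 in Input. Some features had no count in a single Input library although the other 3 Input libraries each held at least 10 counts. There were 19, 213, 581 and 143 such features in Input replicates 1 to 4, against 0 in every CPEB4 IP library. These were 0.412%, 4.28%, 11.1% and 3.02% of the features with at least 10 counts in the other 3 Input libraries. By the same rule IgG IP replicates 1 to 4 had 0, 4, 0 and 0, out of 1223 to 1767 features per library. All 10 adipocyte markers were detected in all 3 groups, with summed levels of 19796 to 24101 CPM in CPEB4 IP, 13434 to 22611 in IgG IP and 11137 to 19338 in Input. Lpl and Fabp4 made up most of these sums. Lpl, Fabp4, Cebpa and Adipor2 had more counts in CPEB4 IP than in Input. The other markers had fewer, such as Adipoq (2107 against 5661) and Retn (18 against 1604). The sum of 8 preadipocyte markers was 193 to 410.2 CPM in CPEB4 IP, 323 to 732 in IgG IP and 1064 to 1871 in Input, and its part in the results was not tested. Without Vim the ranges of the groups overlapped. Vim had 16.1 to 33.0 CPM in CPEB4 IP, 48.9 to 145 in IgG IP and 806 to 1599 in Input, and the other 7 markers summed to 177 to 379 CPM in CPEB4 IP, 231 to 587 in IgG IP and 207 to 475 in Input. The sum of 6 muscle genes reached 2.41 CPM in CPEB4 IP, 0 in IgG IP and 53.3 in Input, and none of the 6 had a count in IgG IP. In CPEB4 IP the mRNA of Cpeb4 exceeded its IgG IP level with a log2 fold change of 2.44 (adjusted p = 0.00867), a call that failed when replicate 1, 2 or 4 was left out (adjusted p = 0.0578, 0.0824 and 0.0675), or IgG IP replicate 3 (adjusted p = 0.0507). In bulk RNA, fewer cells of a type and less RNA per cell cannot be told apart. Between a precipitate and Input, neither can be told apart from precipitation or from the poly(A) selection of Input.

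Insr, the receptor, had the highest level per kb of the tested genes in CPEB4 IP. In replicates 1 to 4 it had 1219, 1295, 1029.6 and 1014 CPM in CPEB4 IP, against 363, 554, 614 and 734 CPM in IgG IP, and 65.8, 66.6, 31.6 and 79.4 CPM in Input. The lowest CPEB4 IP library stood above the highest IgG IP library, and every IgG IP library stood above every Input library. The gap between the precipitates was widest in replicate 1 and narrowest in replicate 4, with log2 ratios of CPEB4 IP to IgG IP of 1.74 and 0.46 there.

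Irs1, the docking protein with counts in quantity, had 321, 168, 316 and 357 CPM in CPEB4 IP. It had 212, 162, 347 and 473 CPM in IgG IP and 19.0, 16.0, 86.9 and 0 CPM in Input. CPEB4 IP and IgG IP overlapped almost fully, and both lay above Input throughout. Replicate 4 of Input, where Irs1 had no count, was the most deeply counted Input library, and replicate 3, with 88 counts, the least. The antisense neighbour Gm9747 had 102, 45, 63 and 50 counts in CPEB4 IP, 10, 7, 12 and 23 counts in IgG IP and 0 counts in all 4 Input libraries. The other docking protein, Irs2, had 5, 2, 3 and 3 counts in CPEB4 IP, no count in IgG IP and 2, 8, 0 and 17 counts in Input. No fold can be given for Irs2 against IgG IP, because 3 counts over the whole IgG IP group would equal 3.50 CPM, above its level of 2.65 CPM over the CPEB4 IP group.

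PI3K is represented by both subunits. Pik3r1, the regulatory subunit, had 750.0, 554, 909.7 and 942 CPM in CPEB4 IP, against 514, 546, 836 and 1225 CPM in IgG IP, and 30.0, 53.3, 53.3 and 102 CPM in Input. Its precipitates overlapped, both far above Input. Pik3ca, the catalytic subunit, had 180.1, 186, 212 and 232 CPM in CPEB4 IP. It had 42.4, 61.5, 133 and 94.7 CPM in IgG IP and 41.6, 40.8, 99.7 and 113 CPM in Input. All CPEB4 IP libraries lay above all others, while IgG IP and Input overlapped. The IgG IP values of Pik3ca rest on 7, 8, 30 and 32 counts.

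Of the kinases, Akt1 had 138, 150.4, 184 and 209 CPM in CPEB4 IP, against 84.7, 53.9, 75.6 and 118 CPM in IgG IP, and 98.6, 46.2, 20.7 and 26.7 CPM in Input. CPEB4 IP was again above all other libraries. Input replicate 1 was the highest Input library and lay within the range of IgG IP. Akt2 had 109.6, 153, 148 and 136 CPM in CPEB4 IP, against 78.7, 61.5, 187 and 178 CPM in IgG IP, and 169, 143, 137 and 158 CPM in Input. The groups of Akt2 overlapped in all 3 comparisons, and its IgG IP libraries fell into a low pair (replicates 1 and 2) and a high pair (replicates 3 and 4).

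At the end of the route, Tbc1d4 had the lowest level per kb of the genes that passed the filter. It had 32.1, 45.3, 50.7 and 35.995 CPM in CPEB4 IP, against 18.2, 30.8, 26.7 and 35.5 CPM in IgG IP, and 16.8, 0, 0 and 15.2 CPM in Input. Its IgG IP values rest on 3, 4, 6 and 12 counts. CPEB4 IP and IgG IP overlapped for Tbc1d4, and both stood above Input. Slc2a4 had 80.6, 86.7, 93.3 and 74.8 CPM in CPEB4 IP, against 48.4, 46.2, 40.02 and 65.1 CPM in IgG IP, and 86.2, 130.5, 62.2 and 179 CPM in Input. For the transporter CPEB4 IP lay above IgG IP in every library, and Input spanned a range that took in all CPEB4 IP libraries and the highest IgG IP library.

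**Figure D1:**
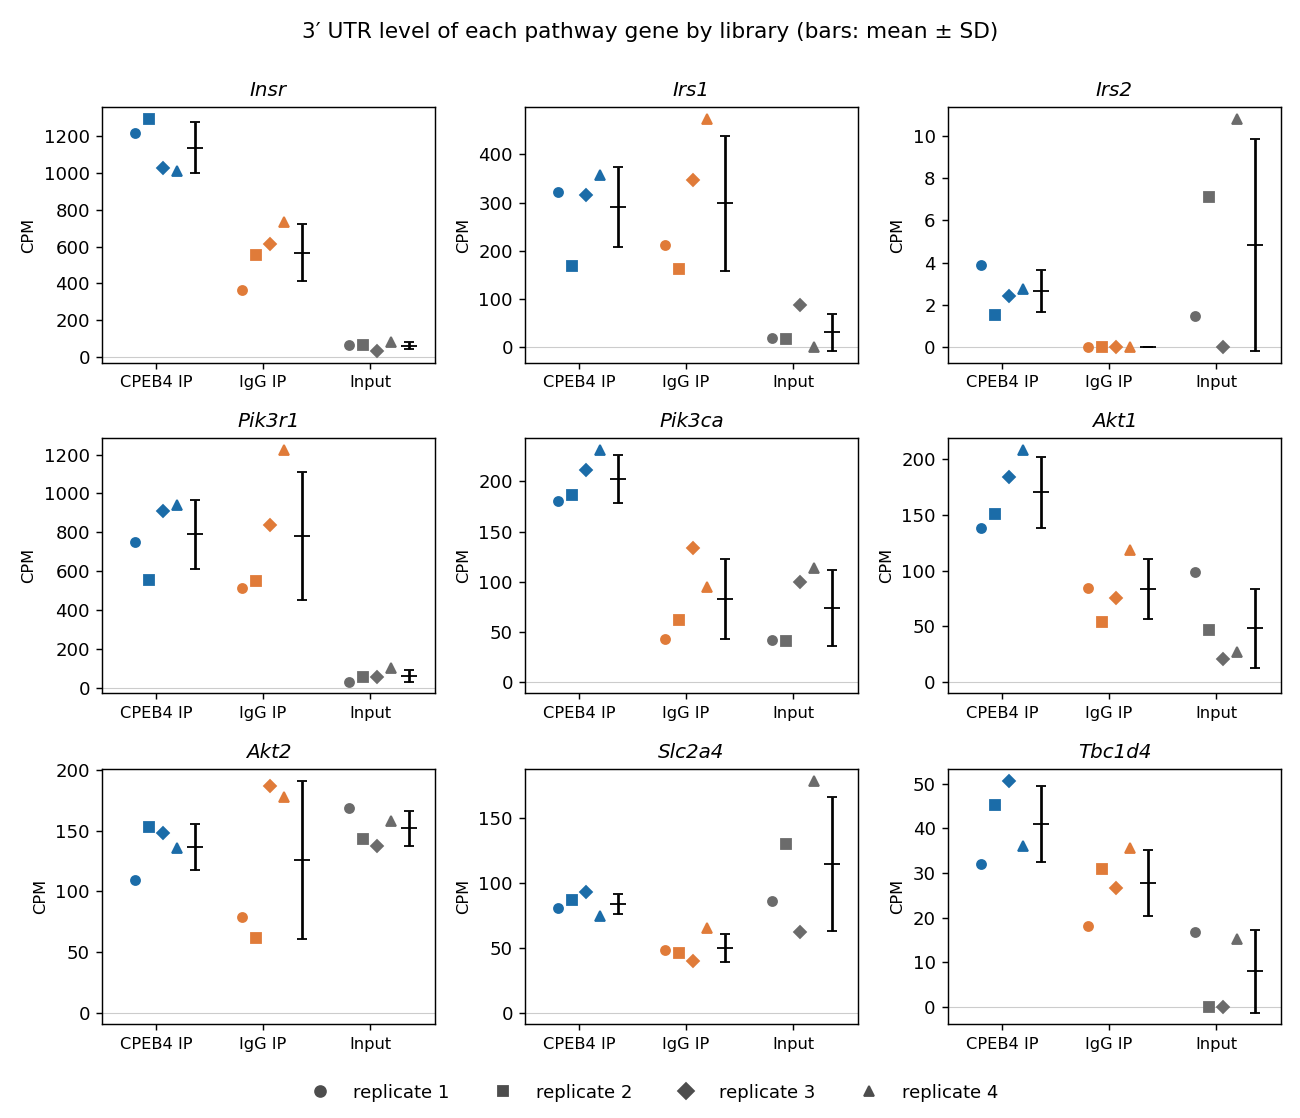
Level of each of the 9 genes (CPM, y axis, own linear scale per gene) in the 4 libraries of CPEB4 IP, IgG IP and Input. Marker shapes give the replicate and black bars the mean and SD (n = 4); Insr, Pik3ca, Akt1 and Slc2a4 are higher in all CPEB4 IP libraries than in any IgG IP library, while Irs1, Pik3r1, Akt2 and Tbc1d4 overlap.

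Setting CPEB4 IP against IgG IP compares the share that an RNA takes of each kind of precipitate, not the amount of RNA brought down. No gene of the route passed the test in the fit reported, which held no block for replicate number or library-number set. Mean CPM of Insr was 1139.6 ± 139 in CPEB4 IP, against 566 ± 155 in IgG IP (SD, n = 4 each), and that of Pik3ca was 202 ± 23.7 in CPEB4 IP, against 83.0 ± 39.9 in IgG IP. For Slc2a4 it was 83.9 ± 7.97 in CPEB4 IP, against 49.9 ± 10.7 in IgG IP. Each of these, and Akt1, was higher in 4 of 4 replicates.

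With p-values from edgeR's quasi-likelihood test adjusted by Benjamini-Hochberg over 8680 features, 0 of the 8 genes passed an adjusted p of 0.05 in either direction. Over all features tested, 4.57% were called higher and 1.3% lower. At an unadjusted p under 0.05 there were 3 of the 8 genes, where 21.2% of all features were, and DESeq2's Wald test gave 0 at its adjusted p, where it called 11.9% of all features. The log2 fold change of Pik3ca was 1.26 (SE 0.44, adjusted p = 0.103). Pik3ca passed with the replicate number as a block, at 1.41 (adjusted p = 0.0326), in a fit that called 7.74% of all features. Insr stood at 1.01 (SE 0.33, adjusted p = 0.0809; 1.02 and 0.0511 with the block) and Akt1 of 1.01 (SE 0.47, adjusted p = 0.228). Slc2a4 stood at 0.73 (SE 0.41, adjusted p = 0.320) and Tbc1d4 at 0.55 (SE 0.92, adjusted p = 0.766). Values near 0 were found for Akt2 (0.08, SE 0.37), Pik3r1 (0.01, SE 0.39) and Irs1 (-0.05, SE 0.75), with adjusted p between 0.918 and 0.993.

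The median over the 8 genes was 0.64 and that over all features 0.24. The median of all features was -0.03 with DESeq2 size factors, where that of the 8 genes was 0.36, and 0.53 with library totals, where that of the genes was 0.93. Under these scalings Akt2 and Pik3r1 turned to -0.17 and -0.25 with DESeq2 size factors, and Irs1 to 0.31 with library totals. The features called higher and lower numbered 397 and 113 with TMM, 256 and 218 with DESeq2 size factors, but 463 and 31 with library totals. All 4 CPEB4 IP libraries lay above all 4 IgG IP libraries for 4 of the 8 genes (Insr, Pik3ca, Akt1 and Slc2a4), as they did for 23.2% of all features tested.

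Within replicates 1 and 2, the log2 fold change of Insr was 1.09 (adjusted p = 0.0640), that of Pik3ca 1.47 (adjusted p = 0.0853) and that of Akt1 0.68 (adjusted p = 0.473). Within replicates 3 and 4, Insr stood at 0.60 (adjusted p = 0.622), Pik3ca at 0.97 (adjusted p = 0.283) and Akt1 at 1.01 (adjusted p = 0.334). With these library-number sets as a block, Insr and Pik3ca passed (adjusted p = 0.0399 and 0.0131), as did 10.1% of all features. Insr also passed without Input replicate 3 (1.00, adjusted p = 0.0301), the library with most of the isolated zeros, where 13.1% of all features were called. In a fit on the 8 precipitated libraries alone, Insr, Pik3ca and Akt1 passed at 0.84, 1.09 and 0.84 (adjusted p = 0.0282, 0.0125 and 0.0331). That fit called 26.2% of all features. When the filter on low counts was applied again to those 8 libraries, Pik3ca alone of the 8 genes passed (0.86, adjusted p = 0.0345), with 32.8% of the features called.

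**Figure D2:**
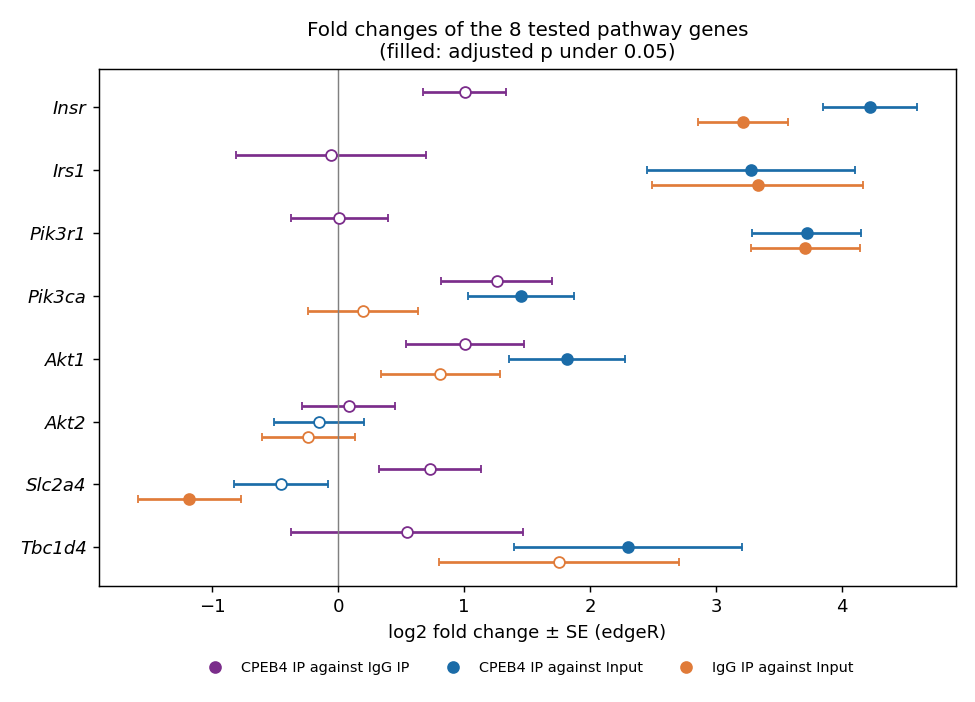
The log2 fold change (x axis) with its SE from edgeR for the 8 tested genes (y axis) in the 3 comparisons. Filled circles mark an adjusted p under 0.05; none is filled for CPEB4 IP against IgG IP, 6 are filled for CPEB4 IP against Input and 4 for IgG IP against Input.

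Against Input, most genes of the route had higher levels in CPEB4 IP, as shares of a library and not as amounts of RNA. The receptor Insr averaged 1139.6 ± 139 CPM in CPEB4 IP, against 60.8 ± 20.5 in Input, and Pik3r1 averaged 789 ± 178 CPM in CPEB4 IP, against 59.7 ± 30.5 in Input (SD, n = 4 each). Irs1, Tbc1d4, Akt1 and Pik3ca were also higher. Akt2 did not pass, at 136 ± 19.3 CPM in CPEB4 IP against 152 ± 14.4 in Input. Nor did Slc2a4, at 83.9 ± 7.97 CPM in CPEB4 IP against 114.5 ± 51.6 in Input.

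By edgeR's quasi-likelihood test, 6 of the 8 genes were higher and 0 lower, where 27.6% of all features were higher and 26.3% lower. Log2 fold changes were 4.22 for Insr (SE 0.37, adjusted p = 2.15e-07), 3.72 for Pik3r1 (SE 0.43, adjusted p = 3.49e-06) and 3.27 for Irs1 (SE 0.83, adjusted p = 0.00326). They were 2.30 for Tbc1d4 (SE 0.91, adjusted p = 0.0422), 1.82 for Akt1 (SE 0.46, adjusted p = 0.00332) and 1.45 for Pik3ca (SE 0.42, adjusted p = 0.00842). Akt2 stood at -0.15 (SE 0.36, adjusted p = 0.741) and Slc2a4 at -0.45 (SE 0.37, adjusted p = 0.326). The median of the 8 genes was 2.06 and that of all features 0.29. The 6 genes called were also those whose 4 CPEB4 IP libraries all lay above the 4 Input libraries, a pattern that 30.9% of all features showed.

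The calls differed in how far they rested on single libraries. Insr and Pik3r1 kept theirs in all 16 fits that left out a library or a replicate number. The call of Tbc1d4, which has no count in Input replicates 2 and 3, held in 3 of the 16, those without Input replicate 1, 3 or 4, and it was lost with DESeq2 size factors (2.05, adjusted p = 0.0672). Pik3ca lost its call without replicate 1 (1.12, adjusted p = 0.0612) or Input replicate 2 (1.07, adjusted p = 0.0519), and Akt1 without replicate 4 (1.28, adjusted p = 0.0742). Without Input replicate 1 Akt1 stood at 2.44. Irs1 kept its call throughout, with a log2 fold change of 4.65 without Input replicate 3 and 2.69 without Input replicate 4.

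Within the library-number sets, Akt1 moved most. Its log2 fold change over Input was 0.50 in replicates 1 and 2 (adjusted p = 0.335) and 3.04 in replicates 3 and 4 (adjusted p = 0.00356), and the difference between the sets was not tested. Insr stood at 3.78 and 4.18, Pik3r1 at 3.52 and 3.56, and Pik3ca at 1.68 and 1.06 in the same order, all past the threshold in both sets. Irs1 passed in replicates 1 and 2 (3.31, adjusted p = 8.34e-05) and not in replicates 3 and 4 (2.99, adjusted p = 0.163). Tbc1d4 passed in neither set (1.63 and 2.43, adjusted p = 0.205 in both).

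The comparison of IgG IP with Input sets RNA precipitated without a specific antibody against poly(A)-selected extract, so it does not measure precipitation alone. It shares the Input libraries with the comparison above. Insr, Irs1 and Pik3r1 were higher in IgG IP, and the transporter Slc2a4 was lower. Pik3r1 averaged 780.4 ± 329.8 CPM in IgG IP, against 59.7 ± 30.5 in Input, and Slc2a4 averaged 49.9 ± 10.7 CPM in IgG IP, against 114.5 ± 51.6 in Input (SD, n = 4 each). Pik3ca, Akt1, Akt2 and Tbc1d4 did not pass.

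By edgeR's quasi-likelihood test, 3 of the 8 genes were higher and 1 lower, where 17.5% of all features were higher and 23.9% lower. Log2 fold changes were 3.71 for Pik3r1 (SE 0.43, adjusted p = 7.72e-06), 3.33 for Irs1 (SE 0.84, adjusted p = 0.00448) and 3.21 for Insr (SE 0.36, adjusted p = 5.22e-06). Slc2a4 stood at -1.18 (SE 0.41, adjusted p = 0.0280), although the groups overlapped. For Tbc1d4 (1.75, SE 0.95), Akt1 (0.81, SE 0.47), Pik3ca (0.20, SE 0.44) and Akt2 (-0.24, SE 0.37), adjusted p ran from 0.157 to 0.762. All 4 IgG IP libraries lay above all 4 Input libraries for Insr, Irs1, Pik3r1 and Tbc1d4, as for 15.9% of all features.

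The calls of Insr, Irs1 and Pik3r1 held in all 16 fits that left out a library or a replicate number. Irs1 stood at 4.72 without Input replicate 3 and 2.76 without Input replicate 4. The call of Slc2a4 held in 9 of the 16 and was lost without replicate 1, 2 or 4 or any one IgG IP library, at log2 fold changes of -1.45 to -0.90 and adjusted p of 0.0551 to 0.163. It was also lost without the Lars2 feature (-0.84, adjusted p = 0.106). Akt1 passed without Input replicate 1 (1.44, adjusted p = 0.0141). Within replicates 1 and 2 Akt2 was lower (-1.26, adjusted p = 0.0304), while within replicates 3 and 4 it stood at 0.30 (adjusted p = 0.484). Akt1 was at -0.19 (adjusted p = 0.804) within replicates 1 and 2 and at 2.03 (adjusted p = 0.0162) within replicates 3 and 4. Slc2a4 was lower within replicates 1 and 2 (-1.29, adjusted p = 0.0411), and within replicates 3 and 4 it stood at -1.18 (adjusted p = 0.206). Insr stood at 2.69 and 3.58 and Pik3r1 at 3.59 and 3.72 in these sets, and Irs1 at 3.29 and 3.28, the second with adjusted p = 0.162.

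The authors' deposited table made 0 calls among the 9 genes in its interaction test, where it called 2.27% of 19051 features higher and 3.28% lower. Irs2 and Tbc1d4 had no adjusted p in that test. The authors' deposited table gave interaction log2 fold changes of 0.95 for Pik3ca (SE 0.63, p = 0.133), 0.71 for Akt1 (SE 0.80, p = 0.376) and 0.68 for Insr (SE 0.48, p = 0.154) by DESeq2. For CPEB4 IP against Input the authors' deposited table called 6 of the genes higher and 0 lower, beside 22.3% and 22.4% of 12431 features. For IgG IP against Input the authors' deposited table called 3 higher and 1 lower, beside 17.1% and 16.6% of 12798 features. The authors' deposited table gave Slc2a4 a log2 fold change of -1.11 in IgG IP against Input (SE 0.45, adjusted p = 0.0422 by DESeq2).

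Divided by the width of the feature in kilobases, the levels of the genes did not keep the same order in precipitates and Input. Over all features, width itself went with the fold changes over Input (Spearman's rho 0.48 for CPEB4 IP and 0.59 for IgG IP). The part of width in the order of the genes was not tested. Irs2 was left out because of its 30-base feature, and the place of Pik3ca depends on which length is used. In CPEB4 IP, Insr led with 240.1 ± 29.4 CPM per kb (SD, n = 4), followed by Akt1 (194 ± 36.7) and Pik3r1 (192 ± 43.2), whose ranges over libraries overlapped one another. Slc2a4 (102 ± 9.65) came next, apart from both Pik3r1 above it and Irs1 (64.5 ± 18.6) below it. Akt2 (50.8 ± 7.19) overlapped Irs1 and, barely, Pik3ca (35.8 ± 4.20), and Tbc1d4 (18.8 ± 3.90) was lowest. In IgG IP the order was Pik3r1 (189 ± 80.1 CPM per kb), Insr (119 ± 32.6), Akt1 (94.8 ± 30.6), Irs1 (66.3 ± 31.2), Slc2a4 (60.4 ± 12.98), Akt2 (47.0 ± 24.3), Pik3ca (14.7 ± 7.06) and Tbc1d4 (12.8 ± 3.38), and every neighbouring pair overlapped. In Input the transporter Slc2a4 led with 139 ± 62.4 CPM per kb, above the range of Akt2 (56.5 ± 5.36). It was not apart from Akt1, whose highest Input library (112) exceeded the lowest of Slc2a4 (75.3). Akt2 overlapped Akt1 (54.8 ± 40.4), and Akt1 overlapped Pik3r1 (14.5 ± 7.39). Pik3r1 overlapped Pik3ca (13.1 ± 6.72), and Insr (12.8 ± 4.31), Irs1 (6.76 ± 8.55) and Tbc1d4 (3.68 ± 4.26) followed, each overlapping its neighbour. Of the 5655 bases of the Pik3ca feature, 2374 lie past the annotated end of the gene. Divided by the other 3281 bases, Pik3ca stood at 61.7 ± 7.24 CPM per kb in CPEB4 IP, 25.3 ± 12.2 in IgG IP and 22.5 ± 11.6 in Input (SD, n = 4 each). On that length, which was tried after the data were seen, its mean lies above that of Akt2 in CPEB4 IP and above that of Pik3r1 in Input, with overlapping ranges, and keeps its place in IgG IP.

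Feature width went with the fold changes over Input. Over all 8680 features, Spearman's rho between width and log2 fold change was 0.48 for CPEB4 IP against Input and 0.59 for IgG IP against Input, but -0.01 for CPEB4 IP against IgG IP. These are descriptions across features, which share libraries and are not independent replicates. Features up to 500 bases had a median log2 fold change of -3.13 in CPEB4 IP against Input and those over 4000 bases of 1.09. Insr, Pik3r1, Irs1 and Pik3ca all belong to the 761 features over 4000 bases. Among these 761, the fold change of Insr in CPEB4 IP against Input stood at the 96.8th percentile, that of Pik3r1 at the 93.3rd, that of Irs1 at the 88.3rd and that of Pik3ca at the 56.6th. In IgG IP against Input, Pik3r1 stood at the 95.8th percentile of the same features, Irs1 at the 92.4th, Insr at the 90.8th and Pik3ca at the 27.3rd. In CPEB4 IP against IgG IP it was Pik3ca (93.8th) and Insr (89.6th) that stood high, with Pik3r1 and Irs1 near the middle (53.0th and 50.2nd). Slc2a4 and Akt1, with widths of 826 and 877 bases, fall among 1670 features of over 500 to 1000 bases. There, Akt1 stood at the 81.4th percentile and Slc2a4 at the 47.9th in CPEB4 IP against Input, and at the 81.6th and 42.9th in IgG IP against Input. Akt2, among 2145 features of over 2000 to 4000 bases, stood at the 24.2nd and 22.5th percentiles in the same comparisons, and Tbc1d4 at the 70.5th and 67.3rd. The part of feature width in the fold changes of these genes was not tested.

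**Figure D3:**
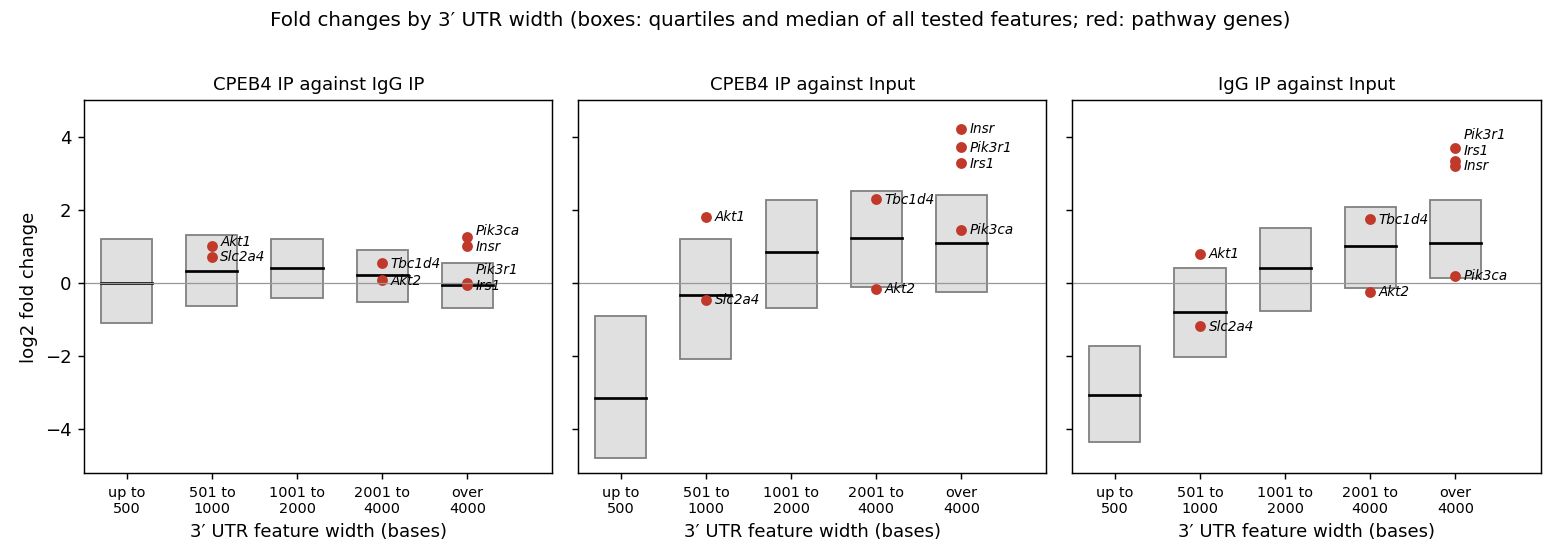
The log2 fold change (y axis) by width of the 3′ UTR feature in bases (x axis, 5 classes) in the 3 comparisons. Grey boxes span the quartiles of all tested features with the median as a black line, and red points are the pathway genes; medians in both comparisons with Input are lowest in the narrowest class, and there Insr, Pik3r1 and Irs1 lie above the upper quartile of their class.

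Ratios within a library set one gene against another without any scaling between libraries. The pairs were chosen after the values of the genes were seen, and 5 pairs in 3 comparisons gave 15 two-sided exact permutation tests. With 4 against 4 libraries the smallest p these can reach is 0.0286, and no test passed after Benjamini-Hochberg adjustment over the 15 (lowest adjusted p = 0.0536). Even fully separated groups could pass only if enough of the other tests also reached that smallest p. The fifth pair was added after one of its genes had been seen to pass, and over the first 12 tests the lowest adjusted p was 0.0571. The log2 ratio of Pik3ca to Pik3r1 averaged -1.94 ± 0.25 in CPEB4 IP and -3.22 ± 0.47 in IgG IP, and 0.28 ± 0.54 in Input (SD, n = 4). All 4 libraries of each group lay apart from those of the others (exact p = 0.0286 in each of the 3 comparisons). The log2 ratio of Akt1 to Akt2 averaged 0.31 ± 0.26 in CPEB4 IP, -0.48 ± 0.60 in IgG IP and -1.91 ± 0.90 in Input (exact p = 0.0571 for CPEB4 IP against IgG IP, 0.0286 for CPEB4 IP against Input and 0.0571 for IgG IP against Input). For Insr over Slc2a4 the log2 ratio averaged 3.75 ± 0.21 in CPEB4 IP and 3.41 ± 0.43 in IgG IP, against -0.87 ± 0.34 in Input. Its exact p was 0.2 between the precipitates and 0.0286 for each of them against Input. Insr over Irs1 averaged 2.02 ± 0.64 in CPEB4 IP, 0.99 ± 0.51 in IgG IP and 2.58 ± 3.93 in Input, where Irs1 was at 0 in replicate 4 (exact p = 0.0857, 0.771 and 0.571 for CPEB4 IP against IgG IP, CPEB4 IP against Input and IgG IP against Input).

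The genes with the highest counts shared their pattern over the 12 libraries with other features. Among 4339 features at or above the median level, the log2 CPM of Insr was most like those of Ywhaz (Pearson r = 0.986), Zeb1 (0.985) and Slc25a51 (0.984). For Pik3r1 they were Ddi2 (0.990), Alkbh5 (0.989) and Etnk1 (0.987), and for Irs1 they were Wnk1 (0.987), Ankib1 (0.980) and Clasp1 (0.973). Among the genes of the route, Insr and Pik3r1 were most alike (r = 0.940), and Irs1 and Slc2a4 least (r = -0.734). These correlations are descriptions over 12 libraries that fall into 3 groups, so they follow the group differences.

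A list of 83 other insulin pathway genes was set beside these, chosen from general knowledge of the pathway with earlier results of these data known. Of the 81 in the table, 68 were tested. In CPEB4 IP against IgG IP, 2 passed as higher and 1 as lower by edgeR's quasi-likelihood test, with a median log2 fold change of 0.20. As shares of the 68 these counts are near those of all features, 4.57% higher and 1.3% lower, whose median was 0.24. Both higher genes, Slc2a1 and Stx4a, were among the 19 tested genes of GLUT4 vesicle traffic and glucose transport, and the lower one, Gys1, was among the 14 tested AKT targets. None of 13 receptor-proximal genes, 10 genes of PI3K, PDK1, AKT and mTORC2, or 12 inhibitors passed.

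Slc2a1 encodes GLUT1, the transporter that carries glucose into many cells without insulin. It had 224, 273, 183 and 138 CPM in CPEB4 IP, against 36.3, 30.8, 40.02 and 17.8 CPM in IgG IP, and 29.2, 43.5, 35.5 and 2.54 CPM in Input. CPEB4 IP lay above all other libraries, with log2 fold changes of 2.74 over IgG IP (SE 0.63, adjusted p = 0.0181) and 2.89 over Input (SE 0.58, adjusted p = 0.000598). Slc2a1 stands beside Slc2a4, whose change over IgG IP did not pass. The log2 ratio of Slc2a1 to Slc2a4, the pair added last, averaged 1.24 ± 0.38 in CPEB4 IP and -0.68 ± 0.78 in IgG IP (SD, n = 4; exact p = 0.0286, adjusted p = 0.0536), and -2.47 ± 2.36 in Input. Stx4a, a syntaxin of the plasma membrane where GLUT4 vesicles fuse, had 168, 211, 101 and 141 counts in CPEB4 IP, 3, 0, 2 and 4 counts in IgG IP, and 90, 62, 0 and 81 counts in Input. Its log2 fold change over IgG IP was 3.60 (SE 0.95, adjusted p = 0.0342), and it did not pass over Input (1.54, SE 0.75, adjusted p = 0.0947). Gys1, glycogen synthase, had 33, 43, 95 and 47 counts in CPEB4 IP, 16, 12, 33 and 58 counts in IgG IP, and 123, 81, 79 and 209 counts in Input. Its log2 fold change against IgG IP was -1.52 (SE 0.42, adjusted p = 0.0439), and its feature overlaps another on the same strand that carries no symbol. When a library or a replicate number was left out, Slc2a1 kept its call in 9 of 16 fits and lost it without replicate 1 or 2, CPEB4 IP replicate 1 or 2, or IgG IP replicate 2, 3 or 4. Stx4a and Gys1 each kept theirs in 6 of the 16, those without replicate 3, CPEB4 IP replicate 3 or any one Input library. With DESeq2 size factors Stx4a did not pass (3.35, adjusted p = 0.0548), and with library totals Gys1 did not (-1.22, adjusted p = 0.127). Log2 fold changes ran from 2.26 to 2.95 for Slc2a1, from 3.17 to 3.93 for Stx4a and from -1.91 to -1.31 for Gys1.

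The most counted genes of 4 classes give a view of the levels. Cav1, the caveolar coat protein, had a log2 fold change of 0.97 over IgG IP that did not pass (SE 0.38, adjusted p = 0.142). Pdpk1, the kinase that phosphorylates AKT, stood at 0.54 (adjusted p = 0.488). Eif4ebp1, a translation repressor downstream of mTOR, stood at -0.70 (adjusted p = 0.320), and Rab14, a GTPase of vesicle traffic, at 0.92 (adjusted p = 0.0640). Rab14 passed with the replicate number as a block (0.94, adjusted p = 0.0378). Of the 68 genes, 32 passed as higher and 12 as lower in CPEB4 IP against Input, beside 27.6% and 26.3% of all features. In IgG IP against Input 19 passed as higher and 7 as lower, beside 17.5% and 23.9% of all features.

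**Figure D4:**
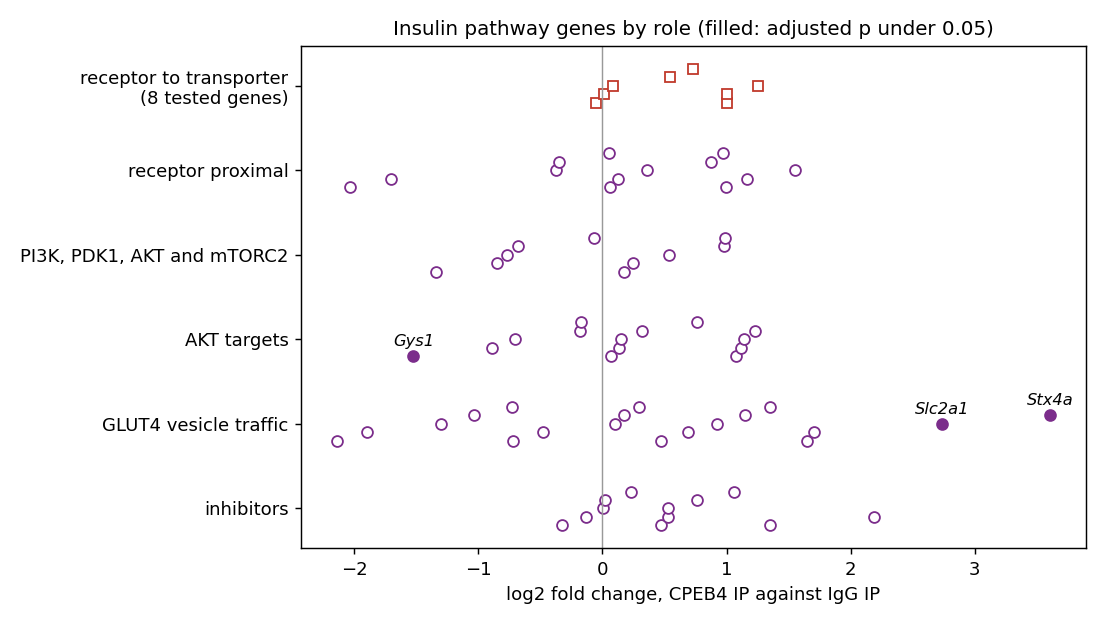
The log2 fold change in CPEB4 IP against IgG IP (x axis) of the 8 tested genes of the route (squares) and of 68 other insulin pathway genes by class (circles, y axis; vertical scatter within a class has no meaning). Filled symbols mark an adjusted p under 0.05 by edgeR; these are Slc2a1 and Stx4a among the genes of GLUT4 vesicle traffic and Gys1 among the AKT targets.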

How the data were processed

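The authors deposited raw counts of reads for each 3′ UTR feature and library, in mm10 coordinates. DESeq2 1.22.1, featureCounts, Bowtie2 2.2.2 and Bowtie 1.2.3 are named, per the submitters' processing notes; the annotation release and use of strand are not given in the sources used here. The table also holds log2 normalised counts, which were not used, and DESeq2 log2 fold changes, p-values and scores (SE, Wald statistics and calls) that the authors deposited.

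Tests were run on the counts with edgeR 4.0.16 in R 4.3.3: filterByExpr (minimum count 10, minimum total 15), TMM, 1 quasi-likelihood model over all 12 libraries, prior count 0.125, and Benjamini-Hochberg adjustment over 8680 features at 0.05. SE is the log2 fold change divided by the square root of F. Features without a symbol (697) held 0.507% to 2.23% of a library. Per-replicate and within-library ratios added 0.5 counts. The code of the test was checked on simulated counts. These had less spread between libraries than the data and no library-number sets, so that check gives no error rates for these data.

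All 9 genes are named throughout. Of the other pathway genes, those passing in CPEB4 IP against IgG IP and the most counted of each class are named, apart from 1 that is not reported here. The genes, lists and tests were chosen with earlier results of these data known. Replicate numbers were taken as pairs for CPEB4 IP with IgG IP and with Input. Deviations of same-numbered libraries correlated there at 0.181 to 0.321 and 0.183 to 0.273. For IgG IP and Input the numbers were not taken as pairs, since only 3 of 4 correlations were over 0.1 (0.0717 to 0.172). Same-numbered libraries also belong to the same library-number set, so these correlations cannot tell pairing by number from those sets. The fit reported held no block, and the exact permutation tests did not use the pairs or the sets. Blocks for the replicate number and for the library-number sets were alternatives.

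There were 27 alternatives listed at the outset. When libraries were left out, the low-count filter was at first applied again each time; after those values had been seen, the 8680 features were kept fixed instead, so that 1 choice changed at a time. Both versions are reported. This and fits on 2 groups with a replicate block make 22 alternatives added after the data were seen. A planned search for sequence elements in the 3′ UTRs was not run, as no genome was used here.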

Additional observations from a re-analysis of the deposited data

How the results depend on the processing

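In CPEB4 IP against IgG IP the number of genes of the route that passed was 0 with TMM on all 12 libraries and 1 with library totals or the replicate block. It was 2 with the library-number sets as a block (881 features in all), 3 in a fit on the 2 groups (2272 features) or on the 2 groups with the replicate block (3148), and 0 or 1 when a library or replicate number was left out. With the low-count filter applied again, the 2 groups gave 1 gene (2087 features), with the replicate block 3 (2925). The choice between fixed and repeated filtering was made after these values were seen, and fixed filtering gave the higher count of genes in the fit on the 2 groups. The number of features called was 510 in the fit reported, 1035 with DESeq2, 2 to 1135 when a library or replicate number was left out (38 to 1162 with repeated filtering), and 0 with replicates 3 and 4 alone under either filter, where edgeR gave 1165 (1149 with repeated filtering) at an unadjusted p under 0.05. A mean count of at least 50 left 2547 features called in CPEB4 IP against Input and 2291 in IgG IP against Input, with fewer tested, and IgG IP against Input gave 2394 in replicates 3 and 4 with repeated filtering. The cause of the other shifts was not tested.

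Of the 10 calls of the genes against Input, Insr and Pik3r1 kept theirs in both comparisons under all 49 alternatives. In CPEB4 IP against Input, Irs1 and Pik3ca each kept theirs under 47 of 49, Akt1 under 45 and Tbc1d4 under 15 of 48. In IgG IP against Input, Irs1 kept its call under 47 of 49 and Slc2a4 under 23. The replicate block changed no other call of the genes than that of Pik3ca.

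Changes of sign were found among uncalled values. In CPEB4 IP against IgG IP, Pik3r1 turned to -0.25 with DESeq2 size factors, -0.25 with DESeq2, -0.0019 without Lars2, -0.35 at a mean count of at least 50, -0.14 in the 2 groups (-0.11 with the replicate block), -0.069 in replicates 1 and 2 and -0.16 in replicates 3 and 4. With repeated filtering it was -0.36, -0.34, -0.051 and -0.10 in the last 4, and leave-outs ran from -0.24 to 0.42. Akt2 turned to -0.17, -0.21, -0.29 (mean count of at least 50), -0.089, -0.085 and -0.36 (replicates 3 and 4) in the same settings, to -0.32, -0.31 and -0.30 with repeated filtering, and ran from -0.19 to 0.39 in leave-outs. Irs1 turned to 0.31 with library totals, 0.052 with the library-number block and 0.019 (0.036 with repeated filtering) in replicates 1 and 2, and ran from -0.35 to 0.37. In CPEB4 IP against Input, Akt2 turned to 0.16 without Lars2 (0.24 with repeated filtering) and 0.069 in replicates 3 and 4 with repeated filtering, and ran from -0.57 to 0.071. In IgG IP against Input, Akt2 turned to 0.088 without Lars2 (0.11), 0.0055 at a mean count of at least 50 and 0.30 (0.37) in replicates 3 and 4, and ran from -0.73 to 0.022. There Pik3ca turned to -0.14 with library totals and ran from -0.22 to 0.77, and Akt1 turned to -0.19 (-0.16) in replicates 1 and 2.

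Depth limits the IgG IP values most. Pik3ca, Akt1, Slc2a4 and Tbc1d4 rest on 77, 78, 45 and 25 counts over the 4 IgG IP libraries, against 382, 250, 610 and 47 in Input.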
